A study of Mus musculus with 18 samples.

Results

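The marker genes of T cells and natural killer (NK) cells described here are 10 genes: Cd3d, Cd3e, Cd3g, Lck, Cd2, Cd8a, Gzma, Gzmb, Nkg7 and Klrd1. They were found by their symbols in the platform annotation, and each gene was read from its brightest probe set. A probe set was found for 9 of the 10, with 13 probe sets in all, 5 of them for Cd8a. Lck had no entry under its symbol and was not analysed here. The tests ran on 14694 genes, among them 8 of the 10, because Cd2 was too dim to be kept.

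Liver RNA was hybridised to 18 Affymetrix mouse expression arrays, 3 for each of 6 groups. The groups were AIM-KO (AIM-/-) mice on normal chow, on a high-fat diet (HFD) for 12 weeks and on it for 20 weeks, and WT (AIM+/+) mice on the same 3 regimens, all on a C57BL/6 background. AIM is the secreted macrophage protein encoded by Cd5l, and the labels limit the deletion to no cell type. Ages are not given in the sources used here, so time on the diet and age cannot be told apart, and the labels do not say whether each biological replicate was a separate mouse, so p-values measure the spread between these samples, which may be technical. On the 9 AIM-KO arrays Cd5l read 4 to 23.5, against 702.6 to 1926.8 on the 9 WT arrays. Xist, the transcript of the inactive X chromosome, read 2921.6 to 3049.7 on 4 arrays, namely the 3 AIM-KO arrays at 20 weeks and WT replicate 2 at 20 weeks, against 7.8 to 26.2 on the other 14. On those 4 arrays 3 genes of the Y chromosome (Uty, Kdm5d and Eif2s3y) lay at 1.4 to 9.9, against 71.8 to 675.1 elsewhere, and the labels give no sex. Every AIM-KO array at 20 weeks and no other AIM-KO array was of this kind, so between AIM-KO at 20 weeks and AIM-KO on chow or at 12 weeks, the time on HFD and this difference cannot be told apart. The ratio of the 3′ to the 5′ actin control, a measure of RNA quality, was 2.25 to 4.22. With 3 arrays a group, their number sets the precision.

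T cells recognise peptide through a receptor whose CD3 chains carry the signal into the cell, where the kinase Lck starts it, and CD8 marks the T cells that kill infected or altered cells. NK cells kill without such a receptor and read their targets through receptors such as the CD94 and NKG2 pairs. Both cell types store granzymes and granule proteins that they release onto a target, and the liver is known for an unusually large share of NK cells and of tissue-resident T cells among its lymphocytes.

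Intensities are the deposited MAS5 values, a linear scale on which the 2% trimmed mean of each array was 100. A probe set was taken to be near background on an array if it lay below that array's 40th percentile, which was 9.5 to 14.2. The markers ranged from mostly above to mostly below this level. Cd8a and Gzma lay above it on 16 of 18 arrays each, Klrd1 on 15, Cd3g on 14, Nkg7 on 10, Cd3d and Gzmb on 6 each, Cd3e on 4 and Cd2 on 1. Above the 60th percentile, 25.7 to 32.2, lay Cd8a on 8 arrays, Klrd1 on 4, Gzma on 3, Gzmb on 1 and the other 5 on none. The labelled tissue is whole liver, so the markers stand for a minority of its cells, and in such bulk samples fewer cells of a type and less RNA per cell cannot be told apart.

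**Figure D1:**
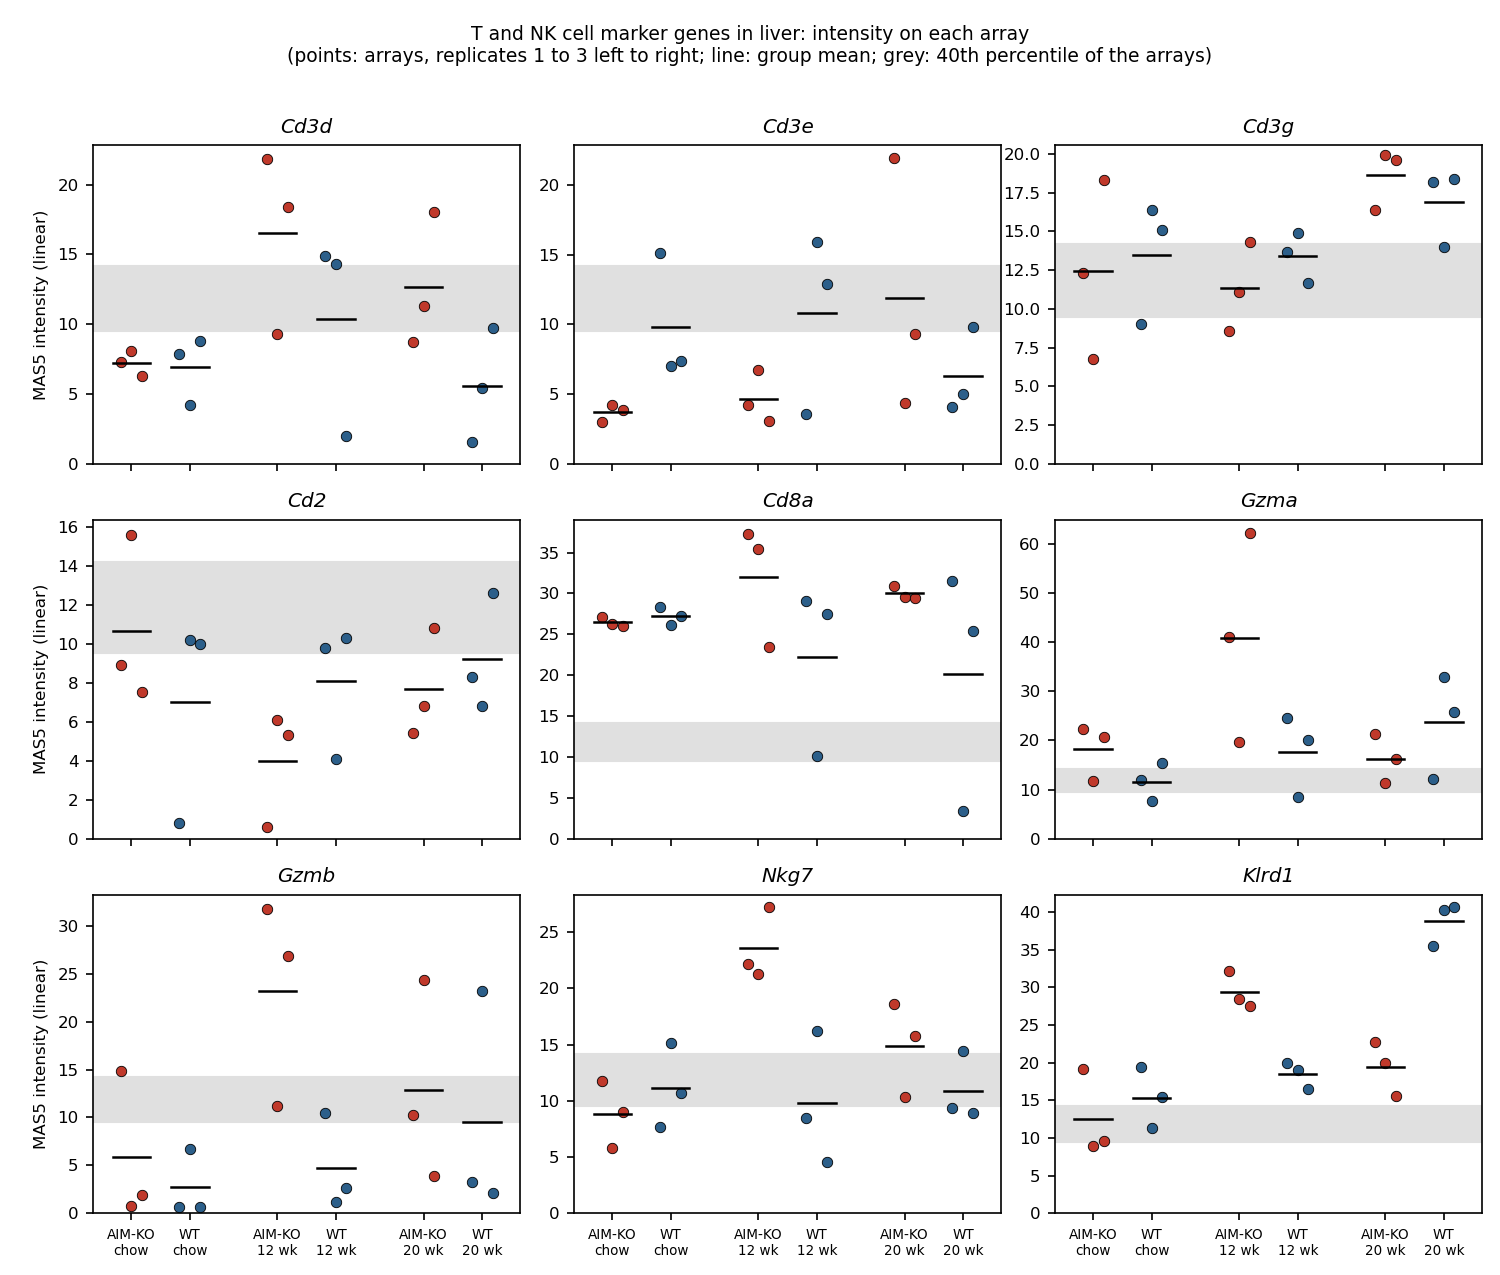
Intensity (MAS5, linear scale) of 9 marker genes on each of 18 arrays, AIM-KO in red and WT in blue, by regimen. Points are arrays, short lines are group means and the grey band spans the 40th percentiles of the arrays (9.5 to 14.2). Klrd1 reads 35.5 to 40.7 on the WT arrays at 20 weeks and 27.5 to 32.1 on the AIM-KO arrays at 12 weeks, and 8.9 to 22.7 on the arrays of the other 4 groups. Nkg7 reads 21.3 to 27.2 on the AIM-KO arrays at 12 weeks.

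The NK receptor gene Klrd1 and the granule gene Nkg7 were the only markers that changed past the threshold in any of 11 comparisons, with limma and an adjusted p under 0.05. Klrd1 rose in WT livers after 20 weeks of HFD and in AIM-KO livers after 12 weeks, by about the same amount, and Nkg7 rose in AIM-KO livers after 12 weeks. The CD3 chains, Cd8a and the granzymes passed in no comparison. No difference between AIM-KO and WT livers passed for any marker on any diet. Log2 changes below are of log2(intensity + 3.3) ± SE with 3 arrays per group, a scale that understates the change of dim genes.

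Klrd1 lies on chromosome 6 and encodes CD94, which pairs with NKG2 proteins on NK cells and on some CD8 T cells and binds the MHC class I molecule Qa-1. In AIM-KO livers it read 19.1, 8.9 and 9.6 on chow, 32.1, 28.4 and 27.5 after 12 weeks and 22.7, 19.9 and 15.6 after 20 weeks. In WT livers it read 19.4, 11.3 and 15.4 on chow, 19.9, 19 and 16.5 after 12 weeks and 35.5, 40.2 and 40.7 after 20 weeks. So the AIM-KO arrays were highest at 12 weeks and the WT arrays at 20 weeks, and in each case they did not overlap the chow arrays of the same genotype. Group means, from high to low, were 38.8 ± 2.87 in WT at 20 weeks, 29.3 ± 2.44 in AIM-KO at 12 weeks, 19.4 ± 3.58 in AIM-KO at 20 weeks, 18.5 ± 1.76 in WT at 12 weeks, 15.4 ± 4.05 in WT on chow and 12.5 ± 5.7 in AIM-KO on chow (SD, n = 3 each). The last 4 of these overlapped their neighbours in the order, and the first 2 overlapped none.

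The change of Klrd1 with 20 weeks of HFD in WT was 1.19 ± 0.25 (adjusted p = 0.0038), and with 12 weeks in AIM-KO 1.10 ± 0.25 (adjusted p = 0.0053). Both calls held in 13 of 13 alternative settings and without any single array of the groups compared. Averaging of probe sets and the use of another Cd8a probe set, both among these settings, left the readings of Klrd1 unchanged. At the other time points the changes were 0.24 ± 0.25 in WT at 12 weeks (adjusted p = 0.68) and 0.56 ± 0.25 in AIM-KO at 20 weeks (adjusted p = 0.22). From 12 to 20 weeks the difference was 0.95 ± 0.25 in WT, where the arrays did not overlap, and its adjusted p was 0.25. In AIM-KO the same difference was -0.53 ± 0.25, again with no overlap (adjusted p = 0.31).

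Set against WT on the same diet, Klrd1 in AIM-KO livers differed by 0.58 ± 0.25 at 12 weeks (adjusted p = 0.54) and by -0.90 ± 0.25 at 20 weeks (adjusted p = 0.12). At 12 weeks every AIM-KO array lay above every WT array, and at 20 weeks every AIM-KO array lay below every WT array. The unadjusted p of the second difference was 0.0023, and the difference lay between -1.44 and -0.37 with 95% confidence. All 3 AIM-KO arrays at 20 weeks were high in Xist, and the WT array at 20 weeks that was also high in Xist read 40.2, between the other WT arrays at 35.5 and 40.7. When Xist-high arrays were given a term of their own in the fit, the difference was -0.95, with an adjusted p of 1, and only the 20 week WT group then holds both kinds of array.

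Nkg7, on chromosome 7, encodes a membrane protein of cytotoxic granules that is needed for their release. In AIM-KO livers it read 11.8, 5.8 and 9 on chow, 22.2, 21.3 and 27.2 after 12 weeks and 18.6, 10.3 and 15.8 after 20 weeks. In WT livers it read 7.7, 15.1 and 10.7 on chow, 8.5, 16.2 and 4.6 after 12 weeks and 9.4, 14.4 and 8.9 after 20 weeks. The AIM-KO arrays at 12 weeks thus stood above every other array of the series, and the other 5 groups overlapped. The change with 12 weeks of HFD in AIM-KO was 1.17 ± 0.35 (adjusted p = 0.027). That call was kept without AIM-KO chow replicate 1 but lost without each of the other 5 arrays of the 2 groups, with changes of 0.97 to 1.23 and adjusted p of 0.052 to 0.11. AIM-KO against WT at 12 weeks, Nkg7 differed by 1.13 ± 0.35 (adjusted p = 0.30), and the diet effect at 12 weeks differed between the genotypes by 1.38 ± 0.50 (adjusted p = 0.40). In WT its change was -0.21 ± 0.35 after 12 weeks (adjusted p = 0.81) and -0.02 ± 0.35 after 20 weeks (adjusted p = 0.99).

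Gzma and Gzmb encode the granzymes A and B, proteases that granules deliver into the target cell. Gzma, on chromosome 13, read 22.3, 11.7 and 20.7 in AIM-KO livers on chow, 41, 19.7 and 62.2 after 12 weeks and 21.4, 11.3 and 16.2 after 20 weeks. In WT livers it read 11.9, 7.6 and 15.4 on chow, 24.5, 8.5 and 20.1 after 12 weeks and 12.2, 32.9 and 25.9 after 20 weeks. The highest readings were AIM-KO replicates 1 and 3 at 12 weeks, but replicate 2 of that group lay within the range of its chow group. Its change there was 0.95 ± 0.42 (adjusted p = 0.13). Gzmb, on chromosome 14, had the widest standard error of the 8 genes. In AIM-KO livers it read 14.8, 0.8 and 1.9 on chow, 31.7, 11.2 and 26.8 after 12 weeks and 10.3, 24.3 and 3.9 after 20 weeks, against 0.7, 6.7 and 0.7, then 10.5, 1.2 and 2.6, then 3.3, 23.2 and 2.1 in WT livers. Its change after 12 weeks in AIM-KO was 1.77 ± 0.71 (adjusted p = 0.097), with a 95% interval of 0.28 to 3.26. AIM-KO chow replicate 1 and AIM-KO replicate 2 at 12 weeks were the arrays that overlapped, and the change became 2.43 (adjusted p = 0.033) without the chow array, but it did not pass without any of the other 5 arrays, replicate 2 at 12 weeks included. Gzma changed by 1.36 (adjusted p = 0.047) without AIM-KO replicate 2 at 12 weeks and did not pass without any of the other 5. AIM-KO against WT at 12 weeks, Gzmb differed by 1.79 ± 0.71 (adjusted p = 0.46) and Gzma by 1.04 ± 0.42 (adjusted p = 0.47).

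The promoters of Gzma, Gzmb and Nkg7 are shown because these 3 granule genes had their highest group means in AIM-KO livers at 12 weeks. Of the 3 only Nkg7 passed there, and a shared regulation was not tested. Each is 300 bases, from 250 before to 50 after the gene's start, from RefSeq (GRCm38.p6), written 5′ to 3′ on the gene's strand. Capitals mark matches, on either strand, to the cores bound by factors known in T and NK cells: TGTGGT of Runx proteins, AGGAAG of Ets proteins and GGTGTG of T-box proteins.
Gzma, chr13:113100932-113101231, minus strand: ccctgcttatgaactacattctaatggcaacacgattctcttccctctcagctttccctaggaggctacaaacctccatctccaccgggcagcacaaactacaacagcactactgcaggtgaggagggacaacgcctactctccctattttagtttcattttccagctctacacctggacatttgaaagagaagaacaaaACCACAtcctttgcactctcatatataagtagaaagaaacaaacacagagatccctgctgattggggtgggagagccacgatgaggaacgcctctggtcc
Gzmb, chr14:56262285-56262584, minus strand: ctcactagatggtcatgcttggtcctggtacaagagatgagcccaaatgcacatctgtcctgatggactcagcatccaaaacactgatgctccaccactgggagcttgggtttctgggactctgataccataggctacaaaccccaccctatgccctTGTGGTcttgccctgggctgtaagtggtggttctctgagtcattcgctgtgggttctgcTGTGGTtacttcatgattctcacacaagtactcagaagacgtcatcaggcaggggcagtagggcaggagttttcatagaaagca
Nkg7, chr7:43436888-43437187, plus strand: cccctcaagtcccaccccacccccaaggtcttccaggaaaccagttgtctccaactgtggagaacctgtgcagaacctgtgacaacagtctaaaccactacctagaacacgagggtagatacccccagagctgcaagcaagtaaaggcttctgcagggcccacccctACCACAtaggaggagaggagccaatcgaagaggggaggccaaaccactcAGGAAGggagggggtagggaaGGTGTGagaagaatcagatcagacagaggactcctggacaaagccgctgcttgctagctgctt
Gzma held 1 Runx match, Gzmb 2 Runx matches, and Nkg7 1 match of each kind, none of which overlapped another. Of 32851 promoters of this length, 16.8% held the Runx core, 35.4% the Ets core and 19% the T-box core. A match is a description of these letters, not a bound site.

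Cd3d, Cd3e and Cd3g encode the delta, epsilon and gamma chains of CD3, which are part of the T cell receptor complex. The 3 genes are neighbours on chromosome 9, the starts of Cd3g and Cd3d 1355 bases apart and those of Cd3d and Cd3e 27825 bases apart. Cd3g lay above the 40th percentile on 14 of the 18 arrays, whereas Cd3d lay below it on 12 and Cd3e on 14. Cd3d read 7.3, 8.1 and 6.3 in AIM-KO livers on chow, 21.8, 9.3 and 18.4 after 12 weeks and 8.7, 11.3 and 18 after 20 weeks. In WT livers it read 7.9, 4.2 and 8.8, then 14.9, 14.3 and 2, then 1.6, 5.4 and 9.7. The AIM-KO chow arrays lay below all AIM-KO arrays on HFD, whereas the 3 WT groups overlapped. No chow array was above the 40th percentile, so Cd3d passed the filter through HFD arrays alone. The changes against chow were 0.85 ± 0.48 after 12 weeks in AIM-KO (adjusted p = 0.26) and 0.56 ± 0.48 after 20 weeks (adjusted p = 0.58).

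Cd3e read 3, 4.2 and 3.9 in AIM-KO livers on chow, against 15.1, 7 and 7.4 in WT livers on chow. These chow groups did not overlap, but the difference of -0.86 ± 0.48 did not pass (adjusted p = 0.73). After 12 weeks Cd3e read 4.2, 6.7 and 3.1 in AIM-KO and 3.6, 15.9 and 12.9 in WT, and after 20 weeks 21.9, 4.4 and 9.3 in AIM-KO and 4.1, 5 and 9.8 in WT. Its only other separation was in AIM-KO at 20 weeks against chow, with a change of 0.95 ± 0.48 (adjusted p = 0.28). Cd3g was the steadiest of the chains, with 12.3, 6.8 and 18.3 in AIM-KO on chow, 8.6, 11.1 and 14.3 after 12 weeks and 16.4, 19.9 and 19.6 after 20 weeks. In WT it read 9, 16.4 and 15.1, then 13.7, 14.9 and 11.7, then 18.2, 14 and 18.4. Its changes against chow ran from -0.06 ± 0.30 in AIM-KO at 12 weeks (adjusted p = 0.93) to 0.54 ± 0.30 in AIM-KO at 20 weeks (adjusted p = 0.34). From 12 to 20 weeks in AIM-KO it was higher on every array, by 0.60 ± 0.30 (adjusted p = 0.34). The 3 chains did not show 1 common pattern.

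Cd2, an adhesion receptor of T and NK cells, read 8.9, 15.6 and 7.5 in AIM-KO on chow, 0.6, 6.1 and 5.3 after 12 weeks and 5.4, 6.8 and 10.8 after 20 weeks. In WT it read 0.8, 10.2 and 10, then 9.8, 4.1 and 10.3, then 8.3, 6.8 and 12.6. Only AIM-KO chow replicate 2 lay above the 40th percentile of its array. In a fit without the filter its change after 12 weeks in AIM-KO was -0.99 ± 0.46 (adjusted p = 0.19), a difference between readings near background.

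Cd8a, on chromosome 6, encodes the CD8 alpha chain of killer T cells, which some dendritic cells also carry. Its brightest probe set, of the class x_at whose probes can match other transcripts, read 27.1, 26.3 and 26 in AIM-KO on chow, 37.3, 35.4 and 23.5 after 12 weeks and 30.9, 29.6 and 29.5 after 20 weeks, against 28.3, 26.1 and 27.3, then 29.1, 10.1 and 27.5, then 31.5, 3.4 and 25.4 in WT. All groups lay close together except for WT replicate 2 at 12 weeks and WT replicate 2 at 20 weeks, which read far below the rest. No change passed, the widest against chow being -0.70 ± 0.44 in WT at 20 weeks (adjusted p = 0.34). The next brightest probe set, not of that class, read 11 on that WT array at 20 weeks, beside 10.6 and 22.2 on the other 2, and 18 on WT replicate 2 at 12 weeks, beside 17.5 and 20.5. With that probe set the changes against chow were 0.17 ± 0.33 in AIM-KO at 12 weeks (adjusted p = 0.80), 0.32 ± 0.33 in AIM-KO at 20 weeks (adjusted p = 0.65), 0.45 ± 0.33 in WT at 12 weeks (adjusted p = 0.50) and 0.10 ± 0.33 in WT at 20 weeks (adjusted p = 0.89). On this probe set, an alternative chosen after seeing the data, those 2 arrays did not stand apart. The 5 Cd8a probe sets thus disagreed, and the 2 dimmest lay above the 40th percentile on 2 and 0 arrays.

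**Figure D2:**
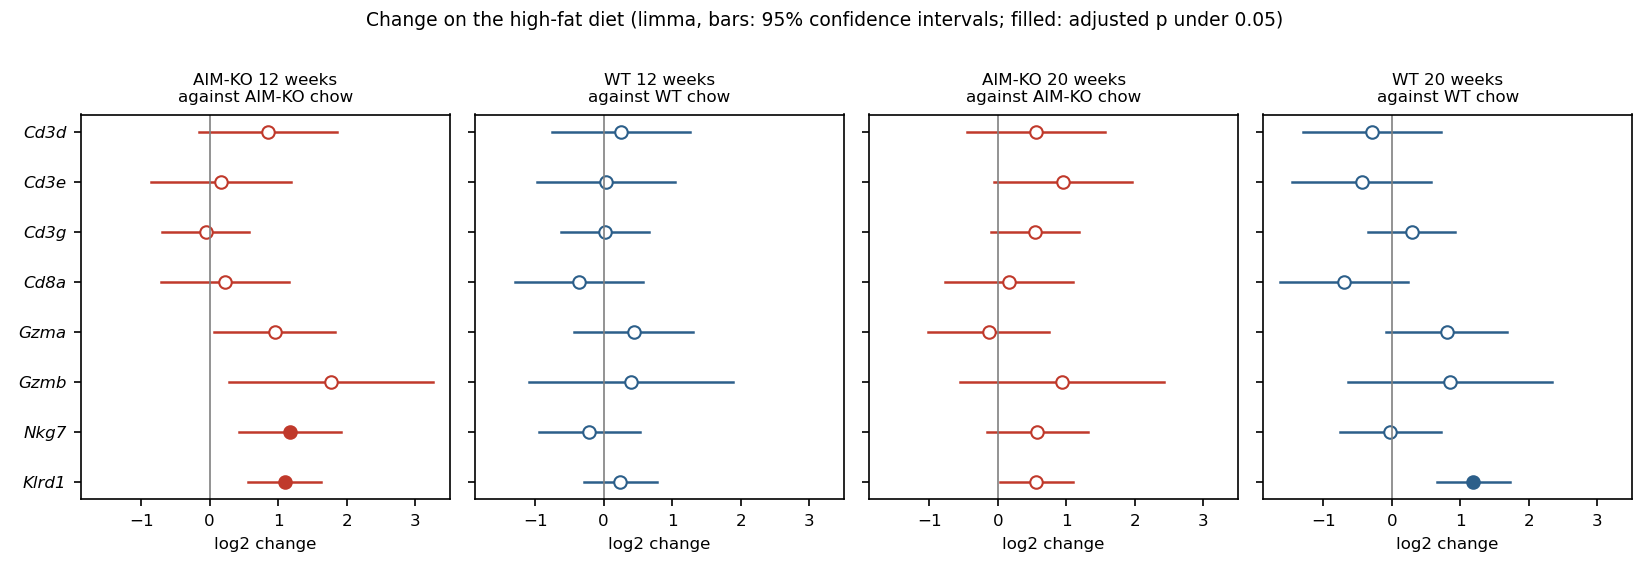
Change of 8 marker genes with 12 or 20 weeks of HFD against chow, on the log2 scale, in AIM-KO (red) and WT (blue) livers, with 95% confidence intervals. Filled points passed limma at an adjusted p under 0.05: Nkg7 (1.17) and Klrd1 (1.10) in AIM-KO at 12 weeks and Klrd1 (1.19) in WT at 20 weeks.

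Counted over the 8 genes tested, 2 rose in AIM-KO livers after 12 weeks of HFD and none fell, where 18.1% of all genes were called either way and 11.4% were called higher. At an unadjusted p under 0.05 there were 4 of 8, against 29.4% of all genes. In WT after 20 weeks 1 of 8 rose, against 14.5% called either way and 8.72% called higher, and at an unadjusted p under 0.05 the count was also 1, against 27.7%. In AIM-KO after 20 weeks and in WT after 12 weeks none of 8 was called, against 6.96% and 5.14% of all genes, and the counts at an unadjusted p under 0.05 were 1 and 0, against 20.3% and 19.5%. With 8 genes a single call is a share of 12.5%, so these counts lie near the shares of all genes. Array weights raised the count in AIM-KO at 12 weeks to 4, with Gzma and Gzmb added. The median log2 change of the 8 genes was 0.90 in AIM-KO at 12 weeks, 0.13 in WT at 12 weeks, 0.56 in AIM-KO at 20 weeks and 0.13 in WT at 20 weeks, where the medians over all genes were 0.04, 0, 0.04 and -0.01. Arrays of the HFD group all lay above the chow group for 3 of 8 genes in AIM-KO at 12 weeks, where 20.4% of all genes did, and for 3 of 8 in AIM-KO at 20 weeks, where 13.5% did. Cd3d, which passed the filter through HFD arrays alone, is 1 of the 3 in both counts. At 20 weeks the others were Cd3e and Cd8a. Cd8a, on its x_at probe set, changed by 0.16 ± 0.44 there (adjusted p = 0.90). On its next brightest probe set the AIM-KO arrays at 20 weeks (16.7 to 32.5) overlapped those on chow (11.9 to 19.8). In WT they did so for none at 12 weeks and 1 at 20 weeks, against 12.6% and 15.4%.

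Between genotypes 0 of 8 markers were called on chow, at 12 weeks or at 20 weeks, where 0.0272%, 0.0749% and 0.157% of all genes were. Over all genes these shares were 4, 11 and 23 genes, and they depended on single arrays: at 12 weeks the count was 104 without WT replicate 1 of that time and 68 with array weights, and at 20 weeks it was 948 without WT replicate 2, the WT array high in Xist, and 720 with array weights. The count of markers stayed at 0 in each of these settings. At an unadjusted p under 0.05 the counts were 0 on chow, 4 at 12 weeks (Gzma, Gzmb, Nkg7 and Klrd1, all higher in AIM-KO) and 1 at 20 weeks (Klrd1, lower in AIM-KO), against 7.24%, 8.38% and 13.4% of all genes. At 12 weeks 3 of 8 lay higher on every AIM-KO array than on any WT array, where 8.5% of all genes did. On chow 1 of 8 (Cd3e) and at 20 weeks 1 of 8 (Klrd1) lay lower on every AIM-KO array, where 6.63% and 8.76% of all genes did. The AIM-KO minus WT difference of the diet effect passed for none at 12 weeks (0.00681% of all genes) or at 20 weeks (0%), and 2 and 0 had an unadjusted p under 0.05, against 9.44% and 10.2% of all genes. From 12 to 20 weeks of HFD 0 markers were called in AIM-KO (3.44% of all genes) or in WT (0.0204%), with 1 in each at an unadjusted p under 0.05, against 16.5% and 8.1%. These were Gzma in AIM-KO at -1.08 ± 0.42 (adjusted p = 0.19) and Klrd1 in WT. Arrays at 20 weeks lay without overlap below those at 12 weeks for 2 of 8 in AIM-KO (Nkg7 and Klrd1), where 15.5% of all genes did, and above them for 1 of 8 in AIM-KO (Cd3g) and 1 of 8 in WT (Klrd1), where 12.4% and 5.44% did. These comparisons share arrays: the 12 week AIM-KO arrays enter its comparison with chow, with WT and with 20 weeks.

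The markers did not rise and fall together within groups. Over the 28 pairs among the 8 genes, the correlation of their deviations from group means across 18 arrays was above 0 in 16, with a median of 0.04 and a range of -0.57 to 0.39, which is a description of dim values on shared arrays. The mean of the 8 standardised markers was highest on the AIM-KO arrays at 12 weeks, at 0.72, 0.33 and 0.81, and next on those at 20 weeks, at 0.62, 0.18 and 0.33. On WT arrays it lay between -0.49 and 0.32 and on AIM-KO chow arrays between -1.02 and -0.10. The 5 genes whose log2 values followed that mean most closely over the 18 arrays were Arhgap30, Slc16a6, Tfe3 and Ifngr1, each with a Pearson correlation of 0.81, and Mef2a with 0.8. Arhgap30, for example, read 64.1 to 76.8 in AIM-KO at 12 weeks, 36.3 to 57.4 in WT at 12 weeks and 15.6 to 36.4 in AIM-KO on chow. The 5 genes were picked for this likeness, so their high readings there follow from the choice and are no separate evidence.

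Other genes of the T cell receptor complex and its signalling, 20 listed and 14 tested, gave 3 higher calls in AIM-KO at 12 weeks (Ptpn22, Lcp2 and Fyn), and none at 20 weeks or in WT. Of all genes 11.4% were called higher in AIM-KO at 12 weeks and 4.29% at 20 weeks. In WT these shares were 3.52% and 8.72%. Lcp2 encodes the adaptor SLP-76, which T cells, NK cells, platelets and myeloid cells use. It read 88.6, 86.7 and 72.4 in AIM-KO livers at 12 weeks, against 44.4, 28.5 and 48.5 on chow, without overlap, a change of 1 ± 0.2 (adjusted p = 0.002). Fyn, a kinase of the Src family, changed by 0.52 ± 0.15 (adjusted p = 0.023), a call lost without 3 of the 6 arrays in turn. Ptpn22, a phosphatase that restrains the receptor, read 22.2, 19.9 and 20.5 at 12 weeks, against 1.8, 11.6 and 3.1 on chow, a change of 1.62 ± 0.51 (adjusted p = 0.034) that was lost without 5 of the 6 arrays in turn. The list kept 1 call with quantile normalization and without AIM-KO chow replicate 1 or AIM-KO replicate 1 or 2 at 12 weeks. Of the 38 genes with a probe set on this list and on that of T cell identity, 8 were near background on all 18 arrays, among them Cd4 at 1.4 to 9.3, Cd8b1 at 0.4 to 8.1 and Gata3 at 0.3 to 4.1. Above the 40th percentile on all 18 lay 6, namely Zap70, Lcp2, Fyn, Ets1, S1pr1 and Icos, and Il7r and Skap1 did so on 17 each, Cd96 on 16 and Cd5 on 12. Among 14 tested genes of T cell identity, Ets1 rose (0.90 ± 0.20) and S1pr1 fell in AIM-KO at 12 weeks. The list as a whole did not move there, with a positive change for 7 of the 14 and a median log2 change of 0.02. S1pr1, the receptor by which lymphocytes leave tissues and which endothelium also expresses, read 56.4, 64 and 49.6 at 12 weeks, against 74.7, 136.8 and 154.6 on chow (-1.01 ± 0.23, adjusted p = 0.0044).

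Of 20 listed NK receptors and regulators 11 were tested. Called higher were 3 in AIM-KO at 12 weeks, 1 in WT at 12 weeks, none in AIM-KO at 20 weeks and 2 in WT at 20 weeks. The shares of all genes were 11.4%, 3.52%, 4.29% and 8.72%. In AIM-KO at 12 weeks 5 of the 11 had a positive change, and the median log2 change was -0.05. The genes called higher were ones that macrophages also express, plus Klrk1. Tyrobp, the adaptor DAP12 of activating receptors on NK and myeloid cells, rose in AIM-KO at 12 weeks (1.22 ± 0.18, adjusted p = 0.00018), in WT at 12 weeks (0.95 ± 0.18, adjusted p = 0.0044) and in WT at 20 weeks (1.43 ± 0.18, adjusted p = 4.7e-05). After 12 weeks it read 519.8, 514.2 and 488.8 in AIM-KO, against 442.4, 335 and 279.5 in WT. At 20 weeks it read 296.6, 269.1 and 176.9 in AIM-KO, against 481.2, 473 and 493 in WT, where every AIM-KO array was lower, -0.99 ± 0.18 (adjusted p = 0.04), a call that was lost in 6 of 13 alternatives, among them a fit with its own term for Xist-high arrays, and without 4 of the 6 arrays in turn. Fcgr3, an Fc receptor of NK and myeloid cells, rose in AIM-KO at 12 weeks (1.03 ± 0.23) and in WT at 20 weeks (0.88 ± 0.23), the second lost without WT chow replicate 1 or WT replicate 2 at 20 weeks. Klrk1, the activating receptor NKG2D, read 29.1, 31.5 and 37.4 in AIM-KO at 12 weeks, against 14.2, 13.9 and 27.2 on chow. These arrays did not overlap, and the change of 0.77 ± 0.25 (adjusted p = 0.039) was lost without 5 of the 6 arrays in turn. In WT at 20 weeks it changed by 0.43 ± 0.25 (adjusted p = 0.30). Ncr1, which encodes the NK receptor NKp46, was near background on every array, at 0.6 to 11.2.

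Among 17 tested genes of cytotoxic effectors and their chemokines 4 rose in AIM-KO at 12 weeks (Ccl3, Ccl5, Gzmk and Srgn), 2 in WT at 12 weeks (Ccl5 and Srgn), 2 in AIM-KO at 20 weeks (Gzmk and Ctsc) and 5 in WT at 20 weeks (Ccl5, Gzmk, Tnfsf10, Ctsc and Srgn), and none fell. Of all genes 11.4%, 3.52%, 4.29% and 8.72% were called higher in these comparisons. Ccl3 and Gzmk, counted here, would not have passed the filter without the HFD arrays on which they were high. The filter thus favoured their calls, and the counts that hold them are no support for a rise of the list. In AIM-KO at 12 weeks the count was 2 with the filter at the 60th percentile and 7 with array weights. In WT at 20 weeks it was 2 with only the groups compared. The count in WT at 12 weeks was 0 without WT replicate 1 of that time and 1 without WT chow replicate 2 or 3 or WT replicate 3 at 12 weeks. The count in AIM-KO at 20 weeks was 1 without any array but AIM-KO chow replicate 3, and 0 with a separate term for Xist-high arrays. Gzmk, the granzyme K of memory and tissue-resident T cells, read 21, 21.4 and 22 on AIM-KO arrays after 12 weeks of HFD and 17.6, 12.4 and 22.9 on those after 20, against 6.2, 2.5 and 8.6 on AIM-KO chow arrays. In WT it read 8, 15.5 and 11.6 at 12 weeks and 12.7, 10.5 and 26.7 at 20 weeks, against 3.9, 3.4 and 3 on chow. No HFD array overlapped the chow arrays of its genotype, and all 6 chow arrays were below the 40th percentile, so the gene passed the filter through HFD arrays alone. Its changes were 1.51 ± 0.36 in AIM-KO at 12 weeks (adjusted p = 0.0062), 1.13 ± 0.36 in WT at 12 weeks (adjusted p = 0.077), 1.24 ± 0.36 in AIM-KO at 20 weeks (adjusted p = 0.044) and 1.48 ± 0.36 in WT at 20 weeks (adjusted p = 0.0089). The first call held in 12 of 12 alternatives that could be fitted and without any single array. The third was lost in 3 of 12, among them the term for Xist-high arrays, and was kept in 1 of the 6 fits that left out an array. The last was lost without WT replicate 3 at 20 weeks, with a term for the actin ratio and with only the groups compared. The actin ratio was 3.64, 2.54 and 4.22 on the WT arrays at 20 weeks, against 2.53, 2.75 and 2.74 on WT chow arrays.

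Ccl5, a chemokine that activated T and NK cells store and release, read 117.7, 60.4 and 91.2 in AIM-KO at 12 weeks, against 37.6, 23.7 and 16.6 on chow, and 41.8, 66.3 and 65.6 in WT at 20 weeks, against 18.6, 16.8 and 5.2 on chow. Neither pair of groups overlapped, and the changes of 1.68 ± 0.33 (adjusted p = 0.0016) and 1.95 ± 0.33 (adjusted p = 0.00059) held without any single array. In WT at 12 weeks its change was 1.33 ± 0.33 (adjusted p = 0.023), lost without WT chow replicate 3 or WT replicate 1 or 3 at 12 weeks. Ccl3, another chemokine of T and NK cells and of macrophages, read 22.1, 25.8 and 21.2 on AIM-KO arrays after 12 weeks of HFD and 0.6, 1.1 and 2.7 on those after 20, against 11.4, 0.7 and 2.4 on chow. It lay above the 40th percentile on 5 arrays, 3 of them AIM-KO at 12 weeks, so it passed the filter only through the group where it was high. Its rise of 1.92 ± 0.56 at 12 weeks (adjusted p = 0.023) was lost without 5 of the 6 arrays in turn, and from 12 to 20 weeks it fell by 2.49 ± 0.56 on the log2 scale in AIM-KO (adjusted p = 0.02), a call also lost without 5 of the 6 arrays in turn and with a separate term for Xist-high arrays. Ifng, the signature cytokine of both cell types, was near background on all arrays, at 0.3 to 11.5.

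**Figure D3:**
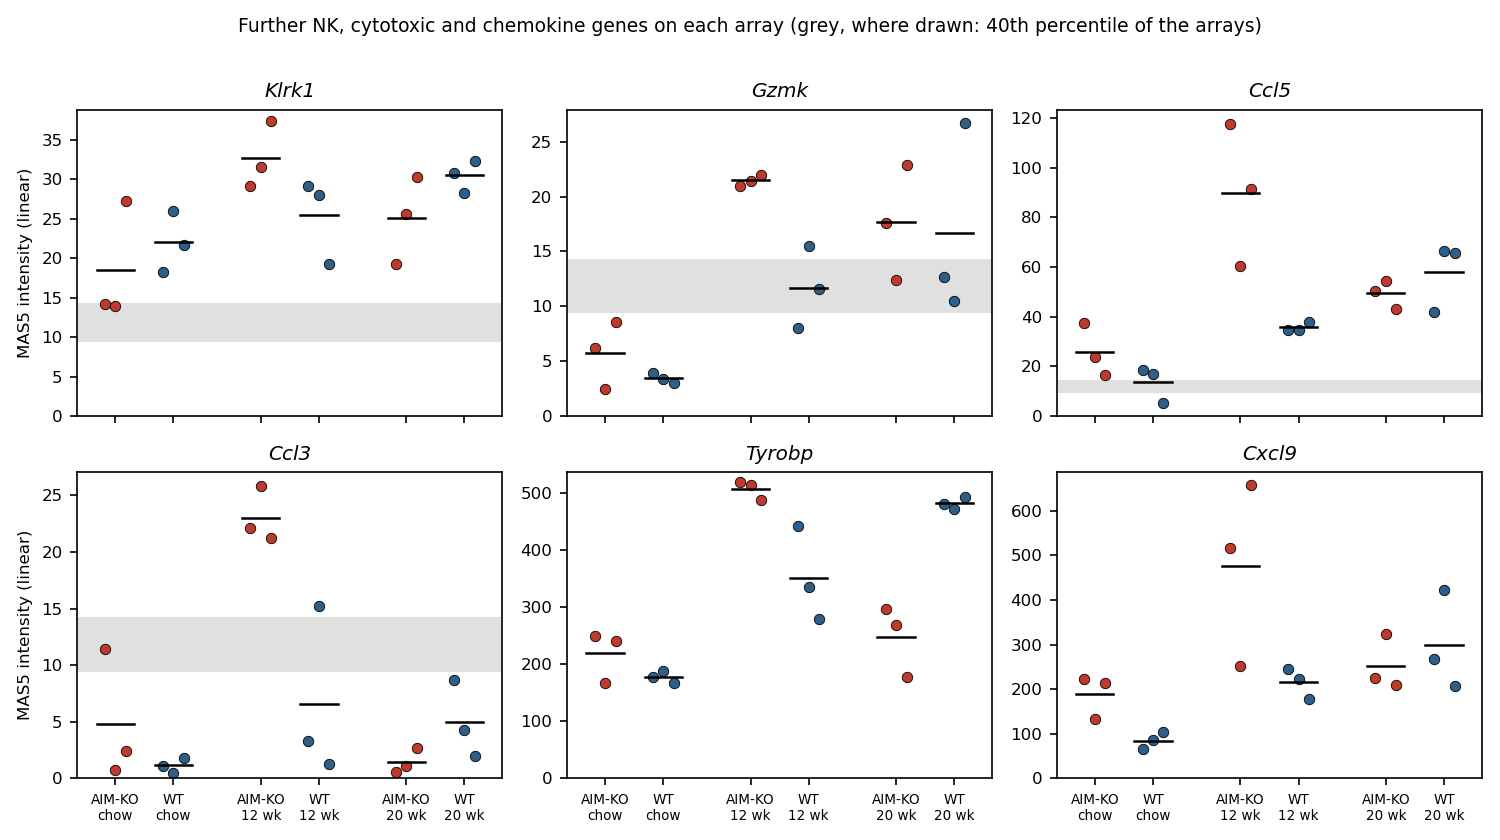
Intensity of 6 further genes (Klrk1, Gzmk, Ccl5, Ccl3, Tyrobp and Cxcl9) on each array by group, AIM-KO in red and WT in blue, with group means as lines; the vertical scale is linear and differs by panel. Gzmk reads 21 to 22 on the AIM-KO arrays at 12 weeks and 2.5 to 8.6 on AIM-KO chow arrays, and Tyrobp reads 473 to 493 on WT arrays at 20 weeks and 176.9 to 296.6 on AIM-KO arrays at 20 weeks.

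Of 14 tested ligands that draw or hold lymphocytes, 6 rose and 1 fell in AIM-KO at 12 weeks, 4 rose in WT at 12 weeks, 1 rose in AIM-KO at 20 weeks and 5 rose in WT at 20 weeks. In these comparisons 11.4%, 3.52%, 4.29% and 8.72% of all genes were called higher. Cxcl9, whose receptor sits on activated T and NK cells, read 516.8, 252.9 and 657.4 in AIM-KO at 12 weeks, against 223.4, 133 and 213.6 on chow (1.24 ± 0.31, adjusted p = 0.0086), and in WT it changed by 1.33 ± 0.31 at 12 weeks (adjusted p = 0.015) and by 1.75 ± 0.31 at 20 weeks (adjusted p = 0.00083). The call of Cxcl9 in AIM-KO was lost without 2 of 6 arrays in turn, that in WT at 12 weeks without 3 of 6, and that in WT at 20 weeks held without any single array. Vcam1, the vascular ligand of the integrin VLA-4, changed by 1.87 ± 0.24 in AIM-KO at 12 weeks, by 1.86 ± 0.24 in WT at 12 weeks, by 0.81 ± 0.24 in AIM-KO at 20 weeks and by 2.68 ± 0.24 in WT at 20 weeks, of which the third, with an adjusted p of 0.049, was called in 6 of 13 alternatives and without 2 of 6 arrays in turn. Of the 14 genes of homing and residency 6 rose in AIM-KO at 12 weeks, 3 in WT at 12 weeks, 0 in AIM-KO at 20 weeks and 3 in WT at 20 weeks. In WT at 12 weeks the ligands kept 2 calls without WT chow replicate 2 or WT replicate 1 at 12 weeks, and the homing genes 1 without WT chow replicate 3 or WT replicate 1 at 12 weeks.

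Markers of several other cell types moved in the same groups. Of 9 tested neutrophil genes none was called on HFD against chow in either genotype. In AIM-KO the summed intensity of 10 neutrophil genes was 201 to 222 at 12 weeks and 224 to 267 at 20 weeks. On AIM-KO chow arrays it was 118 to 151, without overlap. In WT the sums overlapped, at 159 to 418 and 172 to 418, against 150 to 217 on chow. Of 15 genes shared by all leukocytes 9 rose in AIM-KO at 12 weeks, 4 in WT at 12 weeks, 1 in AIM-KO at 20 weeks and 8 in WT at 20 weeks, where 1 fell. The shares of all genes called higher were 11.4%, 3.52%, 4.29% and 8.72%. Of 11 dendritic cell genes 36.4%, 0%, 18.2% and 36.4% were called higher in the same order, and of 11 B cell genes 27.3%, 0%, 9.1% and 27.3%. For the all-leukocyte genes the intensities were also summed. Their summed intensity was 2350 to 2510 in AIM-KO at 12 weeks and 1280 to 1720 at 20 weeks, against 1140 to 1470 on chow, and 1440 to 2100 and 1960 to 2200 in WT, against 1210 to 1290 on chow. Of 14 monocyte and macrophage genes 8, 2, 2 and 8 rose in these 4 comparisons, and their sum was 6920 to 8280, against 3700 to 4570 on chow, in AIM-KO at 12 weeks, and 6690 to 7500, against 3960 to 4150 on chow, in WT at 20 weeks. None of these leukocyte or macrophage genes was at 0 on any array. The summed intensity of the 9 measured T and NK markers was 149 to 208 in AIM-KO at 12 weeks, 104 to 134 in WT at 12 weeks, 138 to 156 in AIM-KO at 20 weeks, 124 to 154 in WT at 20 weeks, 88.2 to 127 in AIM-KO on chow and 101 to 111 in WT on chow. Of 11 hepatocyte genes 7 fell in AIM-KO at 12 weeks, 1 in WT at 12 weeks, none in AIM-KO at 20 weeks and 4 in WT at 20 weeks. Of all genes 6.8%, 1.6%, 2.7% and 5.8% were called lower in these comparisons. The part of these cell types in the changes of Klrd1, Nkg7 and Gzmk was not tested.

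**Figure D4:**
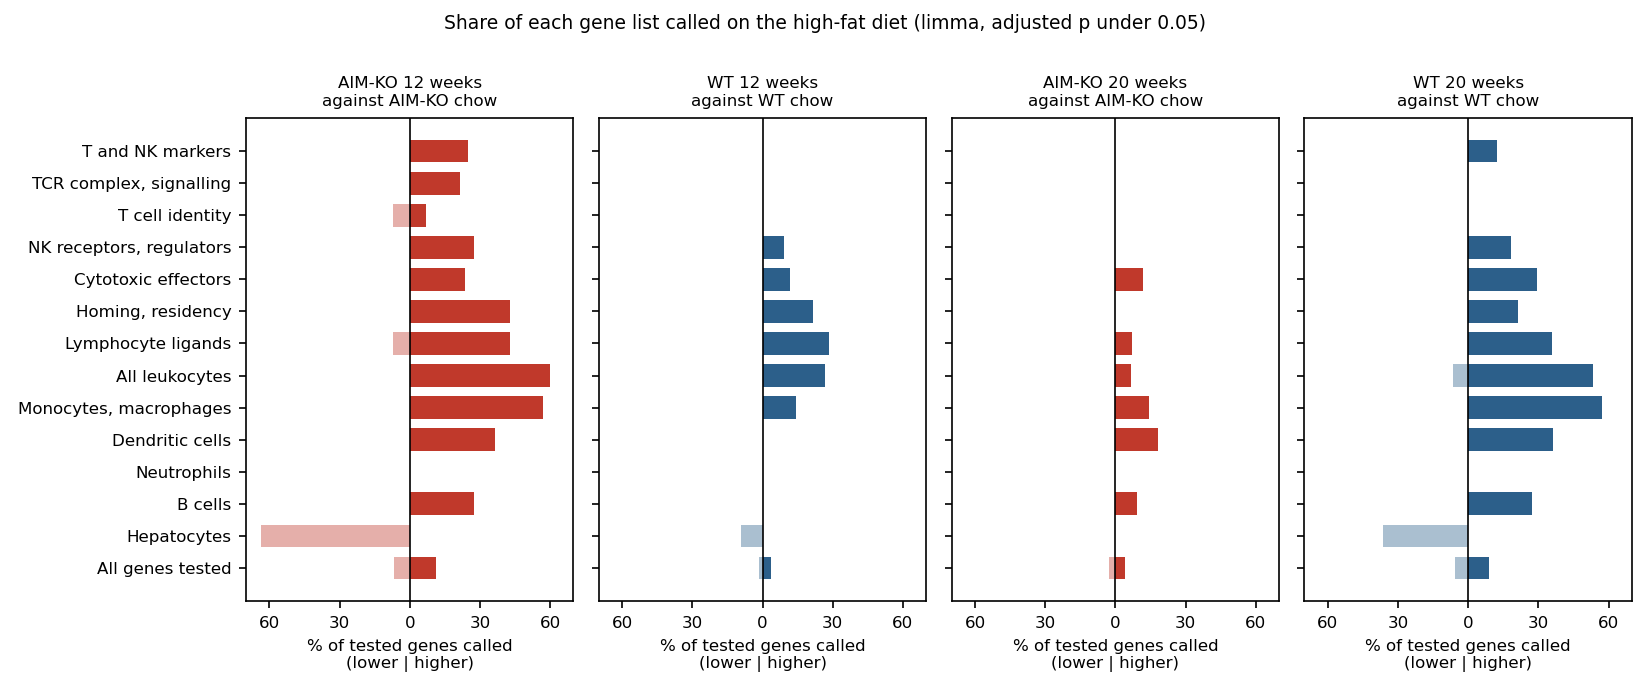
Share of tested genes called higher (right, dark) or lower (left, pale) on HFD against chow with limma, for 13 gene lists and for all 14694 genes, in 4 comparisons. In AIM-KO at 12 weeks 60% of the all-leukocyte genes and 25% of the T and NK markers were called higher, against 11.4% of all genes; in WT at 20 weeks the shares were 53.3%, 12.5% and 8.7%.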

How the data were processed

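Liver RNA of 18 samples was measured on arrays, and the labels gave each sample a genotype and a diet. The authors deposited 1 table of probe set intensity on a linear scale, made with MAS5 per the submitters' processing notes, which name no version. Its 45101 probe sets included 64 controls, which were left out. The platform annotation gave 1 gene for 34945 probe sets, and symbols were updated through gene identifiers of GRCm38.p6 for 34741.

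Intensities were taken as log2(value + 3.3), 3.3 being the 20th percentile of all values, with no further normalization. Kept were probe sets brighter than the 40th percentile of the array on 3 or more arrays, and the brightest mean probe set stood for its gene. Tests of 14694 genes used limma 3.58.1 (R 4.3.3) and fitted the 6 groups on 18 arrays together, with a variance trend and 18.2 degrees of freedom. Adjusted p-values are Benjamini-Hochberg over all genes and 2-sided. The procedure was tested on simulated data.

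The 10 markers were given by name, and they and 17 further gene lists were chosen with earlier results of these data known. Named beyond the markers are up to 3 called genes of a list with the largest change per comparison, or its gene with the smallest p, and the 5 genes most like the markers. Genes of a list named with their count, and genes given as near background, were chosen after their values were seen. Alternatives were pseudocounts of 13.2 and 0.825, quantile normalization, no filter or the 60th percentile, averaging a gene's kept probe sets, no trend, array weights, a replicate block, terms for Xist-high arrays and for the actin ratio, only the groups compared, each array left out and, added after seeing the data, another Cd8a probe set. That Cd8a probe set leaves the readings of every other gene unchanged, though it counts among the alternatives given for such genes.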

Additional observations from a re-analysis of the deposited data

How the results depend on the processing

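The count of called markers was the same in all 13 alternative settings and without any single array for 8 of 11 comparisons. Only Cd8a, Klrd1 and Gzma passed the filter at the 60th percentile, so with it no other marker could be called. The use of another Cd8a probe set could change no marker's readings but those of Cd8a. For 12 weeks of HFD against chow in AIM-KO livers the count of 2 became 1 with the filter at the 60th percentile, which leaves Nkg7 untested, and 4 with array weights, and it ran from 1 to 3 when single arrays were left out. For 20 weeks against chow in AIM-KO the count of 0 became 2 with array weights (Cd3g and Klrd1) and 1 with the term for the Xist-high arrays (Cd8a, 2.4). For AIM-KO against WT at 20 weeks the count of 0 became 1 with that term (Cd8a, 2.31), which rests on WT replicate 2 at 20 weeks, the array where the Cd8a probe set read 3.4. No log2 change that passed in any setting turned its sign. No general pairing by replicate number was seen, which does not exclude pairing in some groups. Over 45 pairs of same-numbered arrays the deviations correlated with a median of 0.04 (-0.09 to 0.23, 5 over 0.1). Replicate 3 at 20 weeks had the highest 40th percentile in both genotypes, 14.2 in AIM-KO and 13.1 in WT, against 9.5 to 11.9 on the other 16 arrays. With the replicate block the counts of called markers stayed at 2 in AIM-KO at 12 weeks, 1 in WT at 20 weeks and 0 elsewhere. Over all genes, the count for 12 weeks in AIM-KO was 2666 and ran from 2208 to 4259 over the alternatives and from 1710 to 2350 without single arrays. For 12 weeks in WT it was 756, 542 to 1317 and 335 to 743, the lowest without WT replicate 1 at 12 weeks. For 20 weeks in AIM-KO it was 1022, 197 to 2017 and 542 to 1011, and for 20 weeks in WT 2129, 1373 to 3032 and 1406 to 2463. The standard errors of Cd3d, Cd3e and Gzmb, 0.48, 0.48 and 0.71 on the log2 scale at readings mostly near background, limit what could be detected for them.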
